A study of Mus musculus with 6 samples.

Results

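The insulin-like growth factor (IGF) axis was examined at 10 genes of the 22921 genes that were placed on the mouse genome. They were the ligands Igf1 and Igf2, the non-coding RNA gene H19 that shares a domain with Igf2, the receptors Igf1r and Igf2r, the binding proteins Igfbp3, Igfbp4 and Igfbp5, and the adaptors Irs1 and Irs2. The genes were chosen by name, with their positions from the annotation of genome build mm9. At each gene, the reads around its start site and over its body were counted, and Sox6 peaks were collected from the gene and from 20 kb on either side of it, including the whole stretch between Igf2 and H19.

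All libraries came from wild type C57BL/6 mice. Myoblasts of fetal limb muscle, taken at E18.5 and listed with 17 passages, were made into myotubes over 48 h in DMEM with 2% horse serum, and chromatin immunoprecipitation (ChIP) was followed by sequencing. Both Sox6 libraries, both RNA polymerase II (Pol II) libraries and both input libraries were from this 1 kind of cell, so no genotype or treatment was compared, and every comparison set a ChIP against input DNA. The study's methods describe the Sox6 and the Pol II libraries as independent ChIP experiments, while the labels do not say whether they came from separate cultures. The p-values of the fits rest on the spread between these libraries only, drawn toward a trend over all features, so very small ones do not come from 1 gene's own spread. Sox6 replicates 1 and 2 held 2985437 and 1468604 mapped reads, Pol II replicates 1 and 2 held 1538757 and 2762155, and the inputs held 21973495 and 24249850.

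The label of the cells was checked against marker genes by Pol II over the gene body. All 13 myotube markers, among them Acta1, Myh3 and Myog, and all 3 myoblast markers, Pax7, Myf5 and Myod1, were higher than input, and the summed Pol II level of the myotube list was 504 and 516 RPKM (reads per kilobase, scaled to library size) beside 9.25 and 9.43 RPKM in input. Of the markers of other cells, 5 of 8 for fibroblasts and 4 of 4 for endothelium were lower than input, and the fibroblast list summed to 2.34 and 2.52 RPKM in Pol II beside 4.08 and 3.87 RPKM in input. Of the other lists, 1 of 3 adipocyte markers, 1 of 3 Schwann cell markers and the 1 blood cell marker tested were lower, and none was higher. Lum, a fibroblast marker, and Fabp4, an adipocyte marker, had 0 Pol II reads in replicate 1 and 5 and 3 in replicate 2, and neither was called lower. Lower than input is not by itself depletion, since the median Pol II log2 ratio of all 5 kb bins of the genome was -0.88. In this bulk assay, fewer cells with a bound gene and less binding per cell cannot be told apart.

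IGF1 and IGF2 are secreted growth factors that bind the receptor tyrosine kinase IGF1R, which signals through the adaptors IRS1 and IRS2 to phosphoinositide 3-kinase, Akt and mTOR and promotes growth and differentiation of muscle cells. IGF2R takes IGF2 into the cell for breakdown, and the IGF binding proteins hold the ligands outside the cell. Igf2 and H19 are imprinted neighbours: Igf2 is expressed from the paternal copy and H19 from the maternal one, under a control region upstream of H19 that binds the insulator protein CTCF on the maternal copy. Igf2r is expressed mainly from the maternal copy, and the antisense RNA gene Airn, which starts inside Igf2r, from the paternal one. Reads here do not separate the parental copies. Sox6 is a transcription factor with a DNA-binding HMG box that has a role in muscle fibre type.

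Pol II divided these genes. H19 and Igf2 carried the most, Irs1, Igfbp5, Igfbp3, Igf2r and Igf1r were also above input, and Igf1 and Igfbp4 were below it. Each library was scaled to its reads, and ChIP was compared with input by limma on log2 values with 0.5 reads added. A gene was called where the p-value adjusted by the Benjamini-Hochberg method over all genes was under 0.05. The added reads weigh more in the smaller ChIP libraries and so raise ratios at low counts. With added reads scaled to library size (a pseudocount equal in RPM), the median Pol II log2 ratio of all starts was 0.41 instead of 0.76. Over gene bodies, counted from 1000 bp inside the start to the end of the longest model, 7 of the 10 genes were higher in Pol II than in input and 2 were lower. Among the 19266 genes tested, 37.6% were higher and 26.4% lower. At the start sites, counted to 1000 bp on each side, 7 of 10 were higher, with Irs2 in place of Igf2, and none was lower by limma, at an unadjusted p under 0.05 or with voom weights, while 40.8% of the 21748 genes tested were higher and 1.36% lower. The median log2 ratio of the 10 genes was 2.29 over bodies and 2.66 at starts, and that of all genes tested 0.09 and 0.76. Over all 490132 bins of 5 kb in the genome the median Pol II log2 ratio was -0.88, so a ratio below input need not mark depletion.

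**Figure D1:**
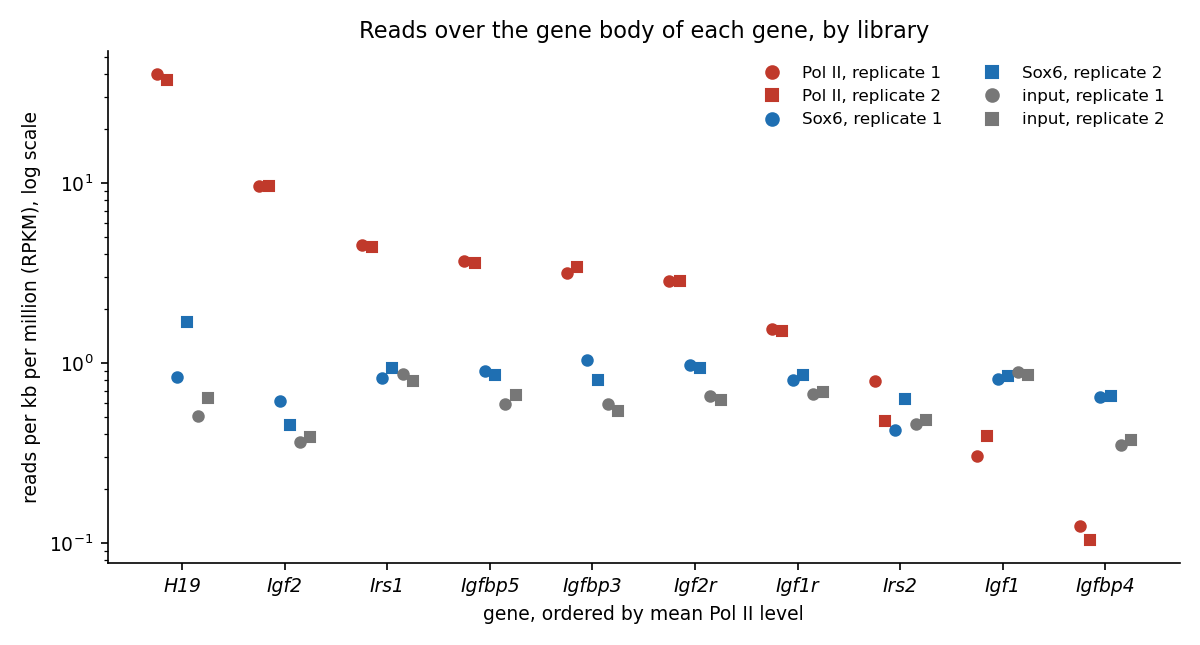
RPKM (log axis) over the body of each gene, with 1 point for each of the 6 libraries; genes are ordered from left to right by their mean Pol II level. Pol II (red) lay above input (grey) by the widest margin at H19, at 40.2 and 37.2 RPKM, and below it at Igf1 and Igfbp4.

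Per kilobase, H19 stood first with 40.2 and 37.2 RPKM of Pol II and Igf2 second with 9.59 and 9.60 RPKM. Irs1 followed with 4.50 and 4.396, Igfbp5 with 3.67 and 3.61, Igfbp3 with 3.15 and 3.40, Igf2r with 2.84 and 2.85, and Igf1r with 1.55 and 1.501 RPKM. Irs2 had 0.793 and 0.477, Igf1 0.304 and 0.390, and Igfbp4 0.125 and 0.104 RPKM. The ranges of the libraries did not overlap between any neighbours in this order, but with the counting error of the reads (95% exact Poisson intervals, which cover counting error only) several neighbours were not separated. In replicate 1 Igfbp3, at 2.17 to 4.42 RPKM, overlapped Igfbp5, at 2.95 to 4.51, and Igf2r, at 2.56 to 3.14, and Irs1, at 4.07 to 4.97, overlapped Igfbp5. In replicate 2 the same pairs overlapped, with Irs1 at 4.08 to 4.74, Igfbp5 at 3.07 to 4.21, Igfbp3 at 2.62 to 4.34 and Igf2r at 2.64 to 3.07 RPKM, as did Irs2 and Igf1, at 0.315 to 0.695 and 0.311 to 0.484. Igf1 and Igfbp4 overlapped in replicate 1, at 0.213 to 0.421 and 0.0151 to 0.451 RPKM. Input lay between 0.350 and 0.894 RPKM at all 10 genes.

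**Figure D2:**
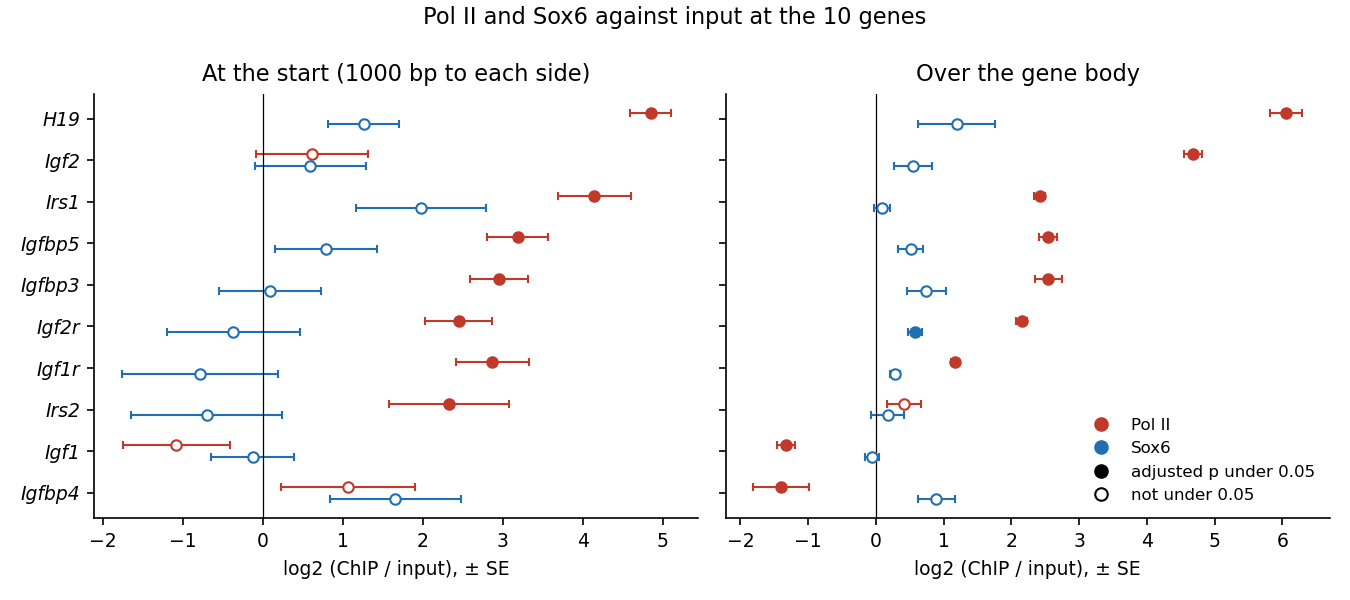
Log2 ratio of Pol II (red) and Sox6 (blue) to input at the start (left) and over the body (right) of each gene, with bars for the standard error and filled points where the adjusted p was under 0.05. Pol II points are filled at 7 genes at the start and 9 over the body, and Sox6 points at Igf2r over the body and at no start.

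H19 lies on the minus strand of chromosome 7 (chr7:149761434-149764048) and is 2615 bp long. Over its body Pol II replicates 1 and 2 had 100 and 166 reads, while the inputs, although many times deeper, had 18 and 25. Both Pol II libraries were far above both inputs, and the log2 ratio was 6.06 ± 0.24 (SE, adjusted p = 1.30e-07, limma), which ranked H19 9th among the 19266 genes tested. At its start the log2 ratio was 4.85 ± 0.25 (adjusted p = 2.22e-79, limma), from 53 and 100 Pol II reads beside 27 and 29 input reads. With a pseudocount equal in RPM this ratio was 4.82 (adjusted p = 0.00143, limma). Under that setting the starts of Igfbp5 and Igf1r had adjusted p = 0.00157 and 0.00184 (limma). Over the whole gene, Pol II at H19 was 127% and 97.4% of that at Actb, the beta-actin gene used for scale, in replicates 1 and 2. At annotated starts 1233 and 1605 bp inside H19, in the fit of all annotated starts chosen after seeing the data, the ratios were 5.86 ± 0.23 and 6.10 ± 0.23 (adjusted p = 3.56e-25 and 5.74e-26, limma). The microRNA gene Mir675 lies within H19 on the same strand, so its reads cannot be told apart from those of its host.

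Pol II at H19 was denser over the body than in the window around the start, which also takes in 1000 bp upstream of the gene. In steps of 1 kb, Pol II had 18 and 14 reads just upstream of the start, 35 and 86 just inside it and 56 and 106 in the next step. The ratio therefore does not compare places within the gene alone, and the share of the upstream side in it was not tested. The start-to-body ratio of reads per base was 0.428 and 0.486 in the Pol II libraries and 1.21 and 0.936 in the inputs, and the difference between them was -1.21 ± 0.24 on the log2 scale (adjusted p = 0.0213, limma), a call also lost with a pseudocount equal in RPM (adjusted p = 0.0554, limma). Over all 19361 genes tested the median of this difference was 0.75, with 15.2% of genes higher and 0.950% lower. This call, like the 2 others of this ratio given below for Igf2 and Igf1r, was lost without Input replicate 1 (adjusted p = 0.366 for all 3, limma) and without Input replicate 2 (0.309 to 0.314), when no gene was called. Pol II also ran on beyond the annotated end: the 2000 bp after it held 81 and 133 Pol II reads, or 52.6 and 48.1 RPM (reads scaled to library size), and 2.09 and 1.24 RPM of input.

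Igf2 lies 72625 bp from the start of H19, on the same strand (chr7:149836673-149852721 over all its models). Over the body of the longest model, which ends before the end of the gene, Pol II had 178 and 320 reads beside 96 and 113 input reads, a log2 ratio of 4.68 ± 0.13 (adjusted p = 2.41e-08, limma). Over the span of all models, an alternative chosen after seeing the data, the ratio was 4.84 ± 0.12 (adjusted p = 3.67e-09, limma), and Pol II reached 42.9% and 30.9% of the Actb level. As at H19, Pol II ran past the end of the gene, with 33.1 and 34.8 RPM in the 2000 bp after it beside 1.46 and 1.98 RPM in input.

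The start sites of Igf2 were not alike. At the start of the longest model, the most upstream one at 149852721, Pol II had 2 and 2 reads and the inputs 15 and 21 (log2 ratio 0.62 ± 0.70, adjusted p = 0.533, limma). It was called without Pol II replicate 2, at 1.04 (adjusted p = 0.0236, limma). When every annotated start in the genome was fitted, also chosen after seeing the data, all 8 other starts of Igf2 were higher in Pol II than in input, as were 45.0% of the 69736 starts. At the start 4946 bp further down, the log2 ratio was 2.58 ± 0.36 (10 and 17 reads, with 23 and 27 in input), at 7327 bp it was 5.76 ± 0.47 (22 and 31 reads, with 5 and 5 in input), and at 9320 bp it was 5.37 ± 0.26 (64 and 101 reads, with 17 and 27 in input). The ratios at the others ran from 3.54 to 5.68. The windows of neighbouring starts overlap, and Pol II that started upstream passes through those downstream. From the most upstream start to position 149848001 Pol II was 0.826 and 0.613 RPKM, and from there to the end of the gene 15.7 and 15.4 RPKM, so nearly all Pol II at Igf2 lay downstream of the first start. The start-to-body ratio of Igf2, taken at the most upstream start, was lower in Pol II than in input by 4.06 ± 0.60 on the log2 scale (adjusted p = 0.0105, limma). The antisense gene Igf2as overlaps part of Igf2, its most upstream start included, and the microRNA gene Mir483 lies within it, and ChIP reads do not show which strand is transcribed.

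**Figure D3:**
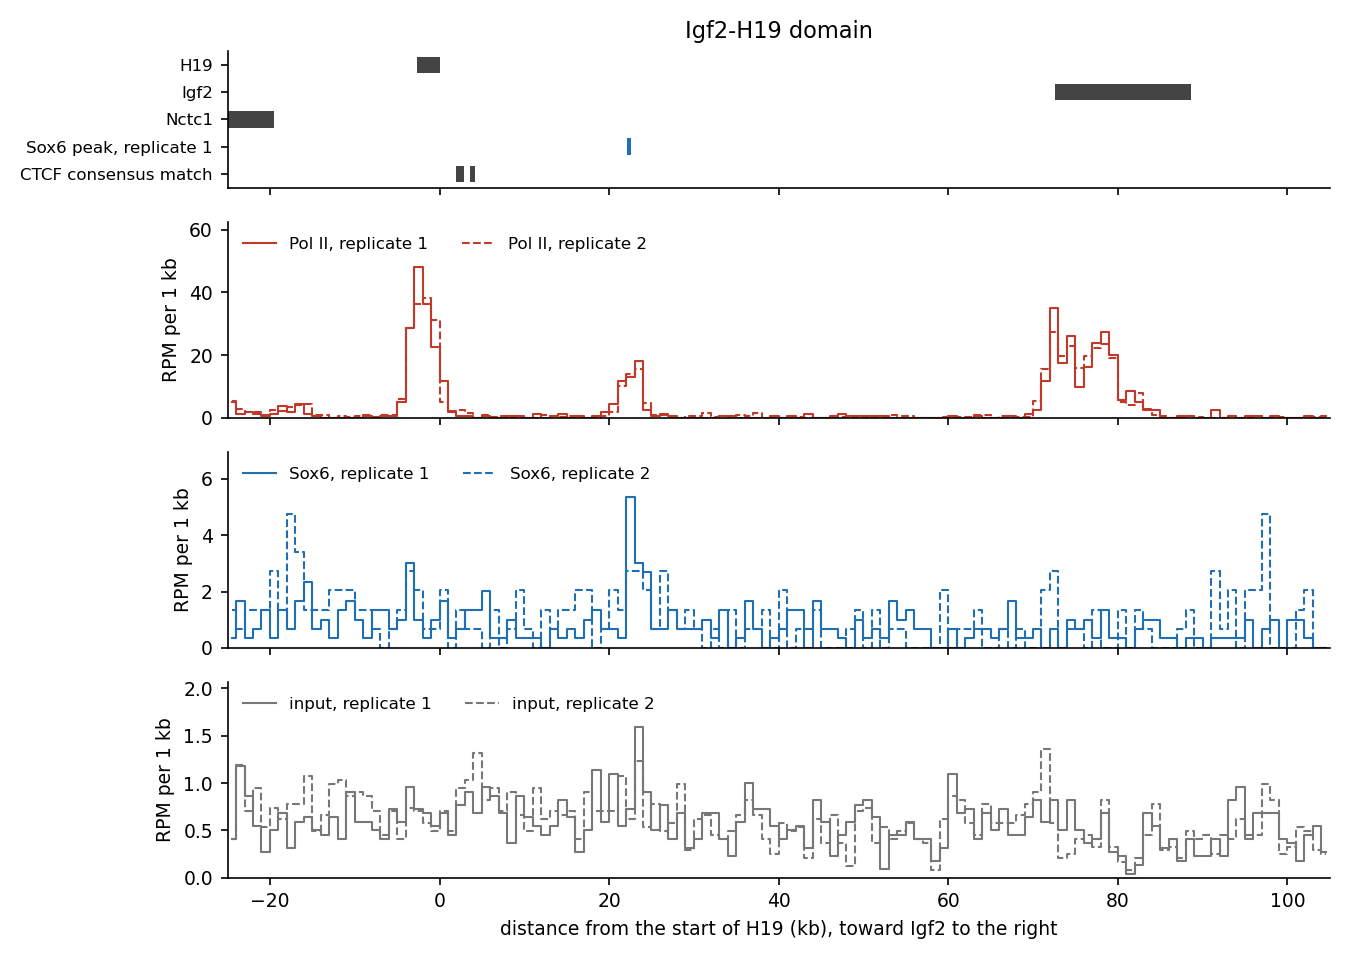
RPM in steps of 1 kb across the Igf2-H19 domain, against the distance from the start of H19, with 1 line for each library (solid, replicate 1; dashed, replicate 2); the top panel shows genes, the Sox6 peak of replicate 1 and matches to the CTCF consensus, and Nctc1 runs on to the left of the plot. Both Pol II libraries rise over H19, over Igf2 and in between, where the Sox6 peak of replicate 1 lies 22353 bp upstream of H19.

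Between the genes, Pol II stood up at 1 place. Of the 14 bins of 5 kb that lie wholly between H19 and Igf2, 1 was higher in Pol II than in input, while 7.73% of all 490132 bins were higher and 5.92% lower. This bin, chr7:149785001-149790000, lies nearer to H19 than to Igf2 and holds no annotated gene. It had 73 and 127 Pol II reads beside 97 and 101 input reads, a log2 ratio of 3.45 ± 0.15 (adjusted p = 5.47e-08, limma), or 9.49 and 9.20 RPKM in the Pol II libraries. In the other 13 bins the log2 ratio ran from -1.36 to 0.79. Sox6 had 36 and 15 reads in the same bin (log2 ratio 1.398 ± 0.24, adjusted p = 0.159, limma), which was the highest Sox6 value of the 14 bins but was not called.

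Within that bin lies the only Sox6 peak of the domain, chr7:149786372-149786431, listed in replicate 1 and not in replicate 2 or the common list. It is 22353 bp upstream of the start of H19, in no gene. In the 450 bp around its centre Sox6 had 9 and 3 reads, Pol II 10 and 16, and input 7 and 6. In replicate 2, which was not used to call it, Sox6 was 8.26 times the input of that replicate, with an exact 95% interval of 1.34 to 38.7 from 3 reads and 6 (exact binomial test, two-sided, adjusted p = 0.0198 over 2888 peaks). The binomial tests and their intervals take each read as an independent molecule and cover counting error only. By this test 67.0% of all peaks of replicate 1 held in the reads of replicate 2. That share includes peaks that both replicates called, so it is not the share for peaks listed in replicate 1 only. The sequence of the 200 bp around the centre is shown because this listed Sox6 peak lies in the bin called for Pol II. Binding of both to the same molecules was not tested. It is given in build mm9 on the plus strand, with matches to the searched motifs in capitals.
H19 upstream peak, chr7:149786301-149786500: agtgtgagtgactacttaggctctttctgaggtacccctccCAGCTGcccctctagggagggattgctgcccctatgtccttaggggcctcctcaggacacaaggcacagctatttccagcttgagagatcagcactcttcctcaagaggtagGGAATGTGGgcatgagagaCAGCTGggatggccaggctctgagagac

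The control region upstream of H19 was located by the letters CCGCGNGG, the start of the consensus at its CTCF sites, searched on both strands. They occur at 3 places between H19 and Igf2, 2172, 2627 and 3897 bp upstream of the start of H19, all within 1 bin of 5 kb. On chromosome 7, 3.19% of such bins hold the letters and 0.157% hold them at least 3 times. The matches are shown with 6 bases on each side, on the minus strand of mm9, with the searched letters in capitals, because they mark where the control region lies relative to the bound places.
chr7:149766214-149766233: acgatgCCGCGTGGtggcag
chr7:149766669-149766688: atgctaCCGCGCGGtggcag
chr7:149767939-149767958: gagttgCCGCGTGGtggcag

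All 3 matches go on with the same bases after the capitals. Over these matches and 500 bp on each side, 2733 bp in all, Sox6 had 8 and 3 reads, Pol II 2 and 11 and input 44 and 64. The 5 kb bin around them had log2 ratios of 0.03 ± 0.36 for Sox6 (adjusted p = 0.983, limma) and 0.43 ± 0.32 for Pol II (adjusted p = 0.318, limma). A match marks the letters only, and CTCF itself was not measured.

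Neither H19 nor Igf2 had a Sox6 peak in the gene, and the nearest common peak was 254 kb from H19 and 330 kb from Igf2. Sox6 at the start of H19 had 8 and 4 reads beside 27 and 29 in input, a log2 ratio of 1.26 ± 0.45 that was not called (adjusted p = 0.229, limma). It was called with the window narrowed to 500 bp on each side, where it was 2.04 (adjusted p = 0.0337, limma), and without either Sox6 library, where the spread came mainly from the inputs (adjusted p = 0.00199 and 0.00441, limma). Over the body of Igf2 Sox6 had 22 and 8 reads (log2 ratio 0.54 ± 0.28, adjusted p = 0.243, limma).

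By their reads over the body in all 6 libraries, the genes most like H19 were Cdkn1a, Tpm2 and Tnnt3, at Euclidean distances of 0.766, 0.861 and 0.889 in log2 RPKM. Cdkn1a encodes a cell cycle inhibitor, Tpm2 a tropomyosin and Tnnt3 a fast muscle troponin, and their Pol II levels were between 26.7 and 42.7 RPKM. The genes most like Igf2 were Idh3g, Eif1 and Maged1, at 0.813, 1.09 and 1.101, with Pol II between 6.58 and 12.3 RPKM.

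Igf1, the other ligand, was different. It lies on chromosome 10 (chr10:87321801-87399792, plus strand). At its start Pol II had 1 and 1 reads, with 30 and 41 in input, a log2 ratio of -1.08 ± 0.67 (adjusted p = 0.201, limma), which was called lower without Pol II replicate 1 (adjusted p = 0.00109, limma). In the fit of all annotated starts, the start at 87321010, just before it, was called lower, with 0 and 0 Pol II reads beside 36 and 48 in input (adjusted p = 0.00216, limma), while those 1550 and 2273 bp inside the gene were not called, at 0 and 2 and at 0 and 3 reads. Over its body Pol II had 36 and 83 reads and input 1512 and 1590, and the ratio was -1.33 ± 0.13 (adjusted p = 3.21e-05, limma). Both Pol II libraries were below both inputs, and of the 24 bins of 5 kb in and around the gene 9 were lower and none higher, but with either input library left out none was called lower. No Pol II peak overlapped the gene in either replicate. The antisense gene Gm16176 overlaps its start.

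A common Sox6 peak lies in intron 4 of Igf1, chr10:87390082-87390221, 68350 bp from the start. Sox6 had 22 and 11 reads in the 450 bp around its centre, or 7.37 and 7.49 RPM, beside 14 and 7 input reads, or 0.637 and 0.289 RPM. Pol II had 1 and 5 reads there. The log2 ratio of Sox6 to input was 4.09 ± 0.46 (adjusted p = 1.06e-17, limma), and this peak ranked 262nd by that ratio among the 1066 common peaks, of which 96.7% were called. Since the common list was made from the same reads, this test describes the peak and does not support it independently. The same holds for counts of each replicate's call in the other, since a common peak was called in both: in the reads of replicate 2 the peak of replicate 1 was 26.0 times input (adjusted p = 5.21e-09, exact binomial test), and in those of replicate 1 the peak of replicate 2 was 12.1 times input (adjusted p = 4.64e-12, exact binomial test). Of all peaks of replicate 2, those called in both replicates included, 84.4% held in the reads of replicate 1.

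**Figure D4:**
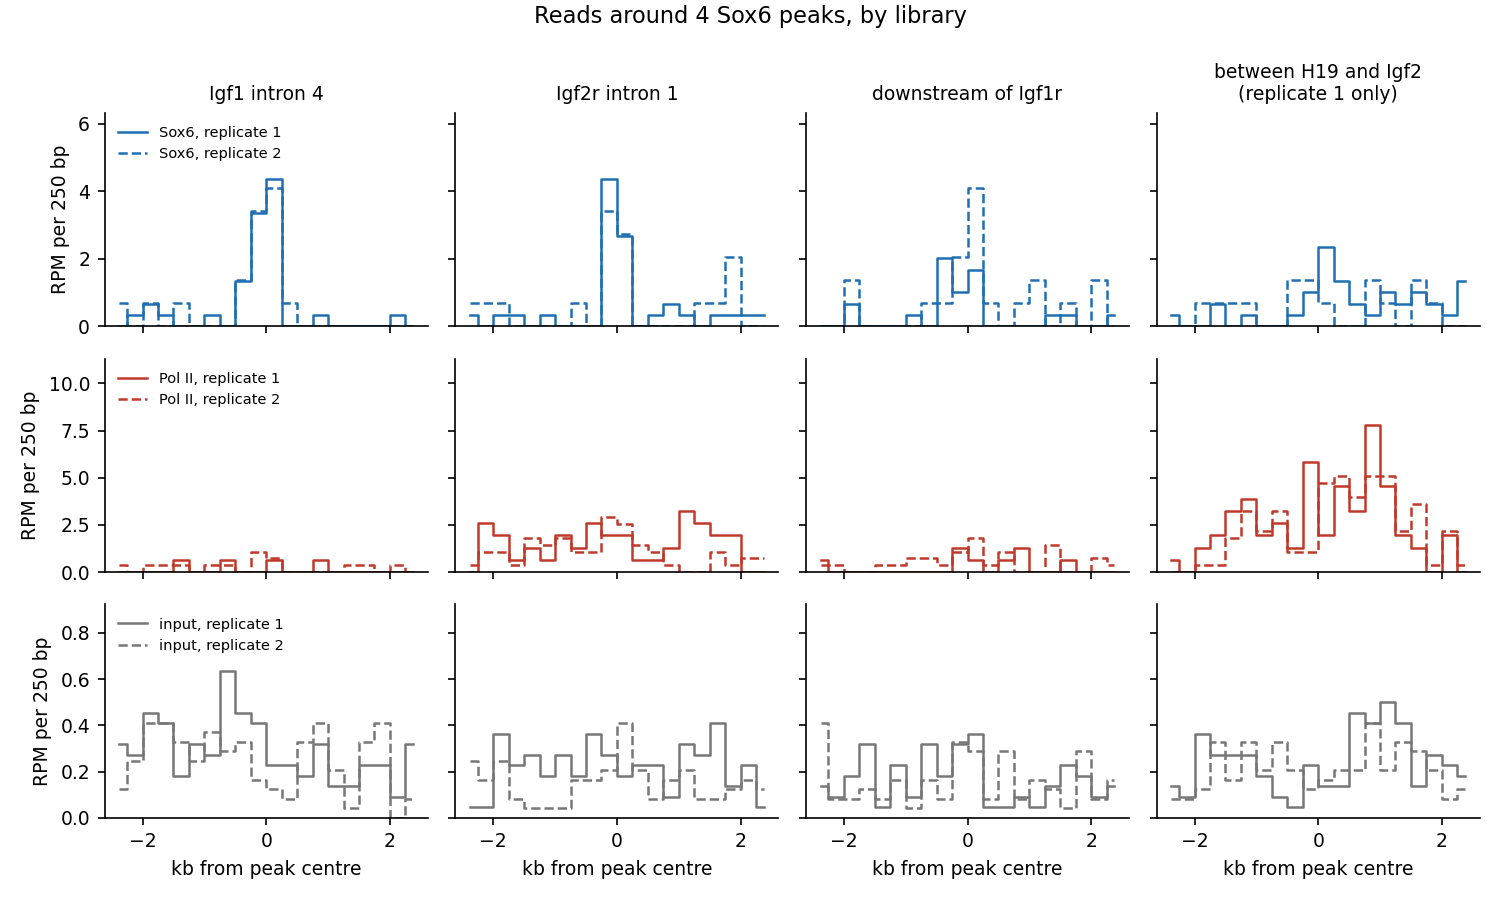
RPM in steps of 250 bp around the centre of 4 Sox6 peaks (columns) for Sox6, Pol II and input (rows), with 1 line for each replicate. Sox6 rises at the centre in both replicates at Igf1 and Igf2r, less evenly downstream of Igf1r, and mainly in replicate 1 between H19 and Igf2, where Pol II is highest.

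The 200 bp around the centre of the Igf1 peak hold more Sox letters than most. The motifs searched, on both strands, were exact letters chosen here for the kinds of motif that the study reported in its Sox6 peaks: Sox (ACAAAG and ACAATG), E-box (CAGCTG and CAGGTG), Runx (CCACA) and Tead (GGAATG). The study found its motifs with the program MEME, so shares of these letters are a different measure from its motif counts. The Sox letters occur 3 times in the Igf1 window, 1 and 12 bp to the right of its centre and 62 bp to the left, and the E-box letters once. Among windows of this length at the common peaks, 58.4% hold the Sox letters and 2.44% hold them at least 3 times, while 24.0% and 0.0938% of windows 2 kb to the right do. The sequences of the windows at the 3 common peaks of these genes are shown for comparison, in build mm9 on the plus strand, with all searched motifs in capitals.
Igf1 intron 4, chr10:87390051-87390250: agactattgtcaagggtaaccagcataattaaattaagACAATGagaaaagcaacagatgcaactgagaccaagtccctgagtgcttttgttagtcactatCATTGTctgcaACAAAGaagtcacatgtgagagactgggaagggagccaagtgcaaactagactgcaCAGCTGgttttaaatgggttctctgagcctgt
Igf2r intron 1, chr17:12944291-12944490: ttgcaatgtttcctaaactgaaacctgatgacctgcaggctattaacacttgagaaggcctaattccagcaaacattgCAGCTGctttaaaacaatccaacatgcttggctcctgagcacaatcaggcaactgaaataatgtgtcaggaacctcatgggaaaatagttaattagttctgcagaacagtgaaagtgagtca
Igf1r downstream, chr7:75384511-75384710: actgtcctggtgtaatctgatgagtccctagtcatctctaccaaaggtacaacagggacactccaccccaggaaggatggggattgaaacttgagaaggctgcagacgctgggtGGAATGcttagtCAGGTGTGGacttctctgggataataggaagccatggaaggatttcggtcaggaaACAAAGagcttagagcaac

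The window at Igf2r holds no Sox letters and 1 E-box, and that downstream of Igf1r holds 1 match to each of the 4 motifs, with the E-box and Runx letters sharing bases. Among the windows at common peaks, 66.4% hold the E-box, 68.9% the Runx and 28.4% the Tead letters, and among those 2 kb to the right 20.7%, 45.8% and 10.4%. The window between H19 and Igf2 holds no Sox letters, 2 E-boxes and 1 match each to the Runx and Tead letters, which share bases there. A match is not a binding site, and its absence says only that the letters are not in the window.

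A further Sox6 peak, chr10:87407292-87407371, lies 7539 bp past the end of Igf1, in no gene, and was listed in replicate 1 only. There Sox6 had 9 reads in replicate 1 and 1 in replicate 2, with 8 and 6 in input. It did not hold in replicate 2 (2.75 times input with an exact 95% interval of 0.0598 to 22.7, adjusted p = 0.383, exact binomial test). Counted in 450 bp, the other 2 peaks listed in a single replicate, between H19 and Igf2 and in Igf2r, passed this test in the other replicate.

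Of the receptors, Igf1r is the longest gene of the group (chr7:75097713-75371326, plus strand), at 273614 bp. Pol II over its body had 650 and 1130 reads and input 4035 and 4540, a log2 ratio of 1.17 ± 0.06 (adjusted p = 7.83e-07, limma). Pol II was spread along the gene: 48 of the 64 bins of 5 kb in and around it were higher than input, and 26 with either input library left out. The start had 7 and 15 Pol II reads beside 16 and 16 in input (log2 ratio 2.87 ± 0.45, adjusted p = 1.43e-09, limma). By this fit the start-to-body ratio of Igf1r was the only one of the 10 called higher in Pol II than in input, at 1.47 and 1.81 beside 0.540 and 0.480, a log2 difference of 1.71 ± 0.40 (adjusted p = 0.0330, limma), and this call was also lost with a pseudocount equal in RPM (adjusted p = 0.0543, limma). The differences at Igfbp4, Irs2 and Irs1, at 2.46, 1.91 and 1.73, were not called (adjusted p = 0.0579, 0.0969 and 0.103, limma), but each was called under some alternatives. Igfbp4 was called with 500 bp windows (0.0146), repeated positions once (0.0415), the replicate block (0.0407) or without either Pol II library (0.00222 and 0.00412), Irs1 with the block (0.0137) or without Pol II replicate 2 (0.00160), and Irs2 without Pol II replicate 1 (adjusted p = 0.000742, limma). Single libraries moved these differences: leaving out Input replicate 1 or Pol II replicate 1 gave 1.07 or 1.15 at Irs1, leaving out Input replicate 2 or Pol II replicate 2 gave 2.39 or 2.31, and at Irs2 leaving out Pol II replicate 2 or 1 gave 1.28 or 2.55. A second annotated start of Igf1r, 195744 bp inside the gene, had 3 and 7 Pol II reads beside 26 and 25 in input in the fit of all annotated starts (1.14 ± 0.48, adjusted p = 0.0493, limma). No Pol II peak of replicate 1 overlapped Igf1r and 1 of replicate 2 did.

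Igf1r counted as near a common Sox6 peak, but that peak lies 13127 bp past its end, in an intron of the neighbouring gene Pgpep1l. It spans 20 bp, chr7:75384602-75384621, and the calls of replicate 1 (75384652-75384731) and replicate 2 (75384412-75384571) on which it rests do not overlap. The edges of these calls lie more than 50 bp apart, the distance named for joining peaks, and the common peak lies between the calls and overlaps neither. Sox6 had 6 and 9 reads in 450 bp beside 14 and 15 in input, a log2 ratio of 2.53 ± 0.49 (adjusted p = 2.34e-07, limma), which ranked 965th of 1066. Without Sox6 replicate 1 the log2 ratio was 3.32 and without replicate 2 it was 1.74. The call of replicate 1 was 11.4 times input in replicate 2 (adjusted p = 7.96e-06, exact binomial test). The call of replicate 2 was 3.15 times input in replicate 1 (adjusted p = 0.0314, exact binomial test), with an exact 95% interval of 0.994 to 8.74 that includes no enrichment. The latter did not pass over the deposited interval alone, where the fold was 0. Within 10 kb of its ends Igf1r had no common peak. Sox6 over the body was 0.28 ± 0.08 in log2 ratio (adjusted p = 0.0616, limma), just outside the threshold, and it was called under some of the alternatives.

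Igf2r lies on chromosome 17 (chr17:12875272-12962530, minus strand), at 87259 bp. Pol II over its body had 377 and 679 reads and input 1247 and 1305 (log2 ratio 2.15 ± 0.08, adjusted p = 8.32e-08, limma), and at its start 7 and 14 beside 15 and 29 (2.45 ± 0.42, adjusted p = 3.51e-08, limma). Pol II peaks overlapped Igf2r 6 times in replicate 1 and 10 times in replicate 2. For comparison, 13.0% and 18.2% of all genes were overlapped by a Pol II peak of replicates 1 and 2.

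The Pol II of Igf2r was uneven along the gene. In the part that the antisense gene Airn overlaps (chr17:12934177-12962530), Pol II was 4.56 and 4.07 RPKM, beside 2.01 and 2.27 RPKM in the part of Igf2r before Airn begins and 2.08 and 1.78 RPKM in the part of Airn past the start of Igf2r, up to the gene Mas1. Input was 0.822 and 0.713, 0.573 and 0.580, and 0.591 and 0.639 RPKM in these parts. Both Pol II libraries were higher in the shared part than in either part alone. ChIP reads carry no strand, so Pol II on Igf2r and on Airn cannot be told apart in the shared part.

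**Figure D5:**
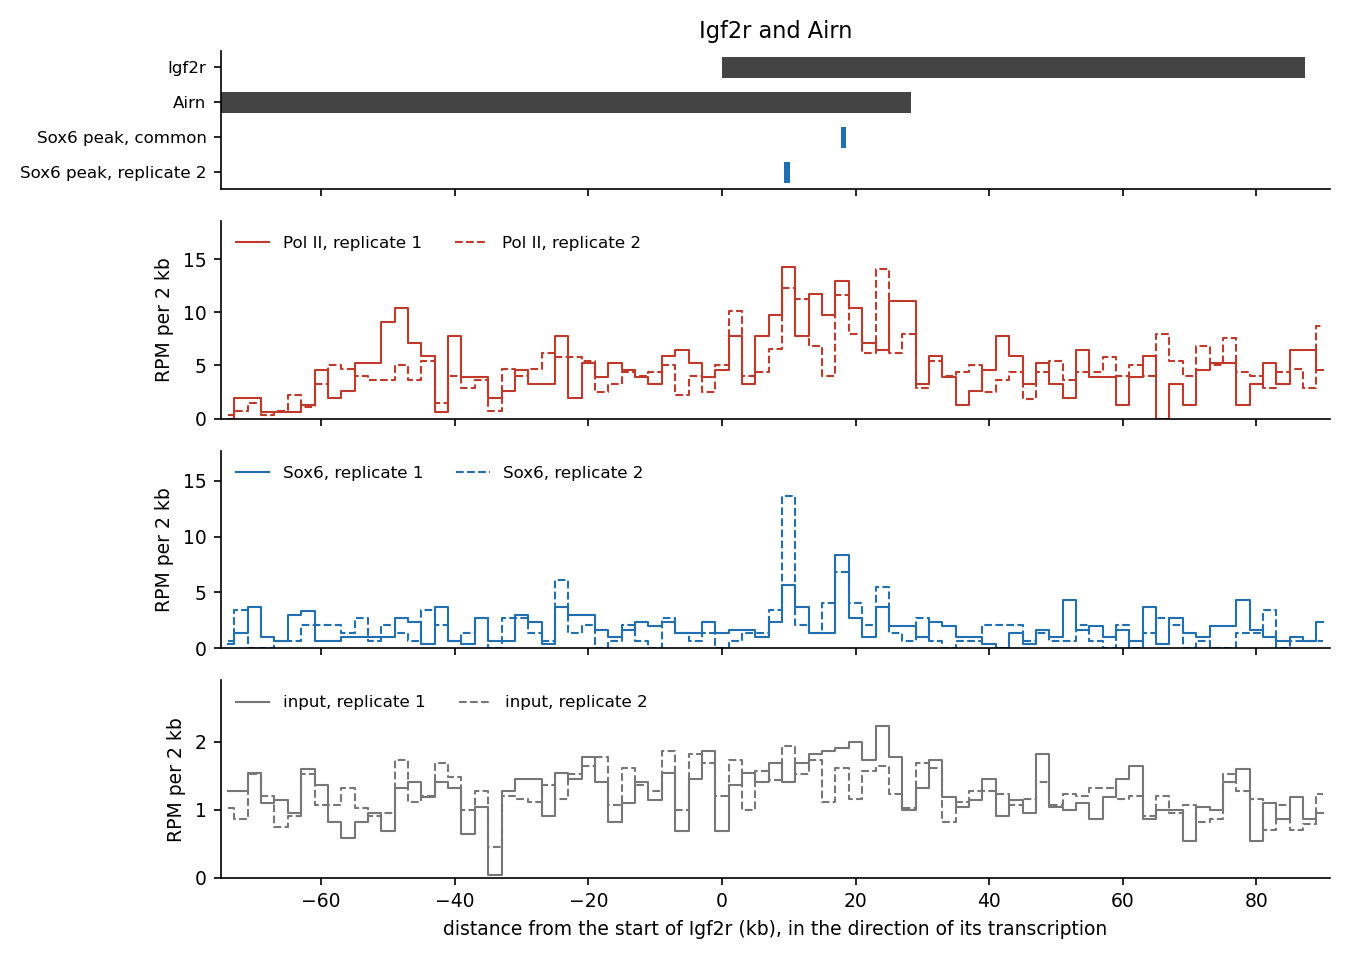
RPM in steps of 2 kb over Igf2r and Airn, against the distance from the start of Igf2r in the direction of its transcription, with 1 line for each library; the top panel shows the genes and Sox6 peaks, and Airn runs on to the left of the plot. Pol II is highest in the part of Igf2r shared with Airn, at 4.56 and 4.07 RPKM, and both Sox6 peaks lie in the same part.

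Both Sox6 peaks of Igf2r lie in its intron 1 and in an intron of Airn. The common peak, chr17:12944282-12944501, is 18139 bp inside the gene and lies beside an internal annotated start of Igf2r at 12944278. Sox6 had 21 and 9 reads in 450 bp, or 7.03 and 6.13 RPM, beside 8 and 13 in input, and Pol II had 6 and 14. The log2 ratio of Sox6 was 3.88 ± 0.47 (adjusted p = 5.83e-16, limma, 342nd of 1066). Since both replicates called it, its counts across replicates are a description too, at 11.4 times input in replicate 2 (adjusted p = 7.96e-06, exact binomial test) and 19.3 times in replicate 1 (adjusted p = 5.73e-13, exact binomial test). Over the deposited interval alone it was 33.1 times input in replicate 1 (adjusted p = 2.25e-06, exact binomial test), and in replicate 2 the fold was 0. Around the internal start Sox6 was called higher in the fit of all annotated starts (25 and 10 reads, log2 ratio 2.30 ± 0.36, adjusted p = 0.0125, limma), where 0.239% of 69899 starts were higher, and this window holds the peak itself. At the main start of Igf2r Sox6 had 4 and 0 reads. Pol II was higher at the internal starts 18252, 18864 and 68385 bp inside Igf2r, at 2.95, 3.13 and 2.35.

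The other peak of Igf2r, chr17:12952592-12952971, is 9749 bp inside the gene and was listed in replicate 2 only. Sox6 had 8 and 11 reads there, beside 9 and 17 in input, and Pol II had 8 and 13, and in replicate 1 Sox6 was 6.54 times input (adjusted p = 0.000614, exact binomial test). Igf2r was also the one gene of the 10 where Sox6 counted over the body was called higher than input in the main fit, with 250 and 119 reads beside 1247 and 1305, a log2 ratio of 0.58 ± 0.10 (adjusted p = 0.0246, limma). With voom weights 2 of the 10 were called. The excess was uneven along Igf2r. In the part overlapped by Airn, which holds both peaks, Sox6 was 1.62 and 2.36 times input in replicates 1 and 2. In the part before Airn begins it was 1.36 and 0.976 times input. Of all 19285 genes 4.82% were higher in Sox6 over the body and 1.56% lower. The call at Igf2r was lost without either input library (adjusted p = 0.0768 and 0.0832, limma) and with a pseudocount equal in RPM (0.0675).

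The binding proteins split. Igfbp5 (chr1:72904506-72921458, minus strand), which is known to rise as myoblasts differentiate, had 90 and 159 Pol II reads over its body beside 207 and 256 in input, a log2 ratio of 2.54 ± 0.13 (adjusted p = 6.52e-07, limma), and at its start 3.19 ± 0.38 (adjusted p = 5.48e-16, limma). Igfbp3 (chr11:7106089-7113900, minus strand), the main carrier of IGFs in blood, had 33 and 64 reads beside 88 and 89, with 2.55 ± 0.21 over the body (adjusted p = 8.04e-06, limma) and 2.95 ± 0.36 at the start (adjusted p = 3.69e-15, limma). Pol II peaks overlapped both genes in both replicates. The 2000 bp past the end held 16.3 and 10.1 RPM of Pol II at Igfbp5 and 8.45 and 8.33 at Igfbp3, beside 0.956 to 1.53 RPM in input.

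Igfbp4 (chr11:98902558-98913969, plus strand) went the other way, with 2 and 3 Pol II reads over its body beside 80 and 94 in input. Its log2 ratio was -1.40 ± 0.41 (adjusted p = 0.0156, limma), from few Pol II reads. Without Input replicate 1 or 2 Igfbp4 was not called, at ratios of -1.44 and -1.35. At its start it had 1 and 2 Pol II reads (1.07 ± 0.84, adjusted p = 0.336, limma). None of its other starts, 2353, 3522 and 6067 bp inside, was called, with 0 to 2 Pol II reads in each library. None of the binding proteins had a Sox6 peak of any list within 20 kb, and the nearest common peaks were 195 kb, 1755 kb and 603 kb from Igfbp3, Igfbp4 and Igfbp5. Sox6 over the body of Igfbp4 was 0.89 ± 0.27 in log2 ratio and was not called (20 and 10 reads, adjusted p = 0.0828, limma).

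The adaptors differed from each other. Irs1 (chr1:82229676-82287991, minus strand) had 397 and 696 Pol II reads over its body beside 1092 and 1109 in input, a log2 ratio of 2.42 ± 0.08 (adjusted p = 6.24e-08, limma). Its start had 18 and 14 beside 6 and 16, a ratio of 4.15 ± 0.46 (adjusted p = 2.73e-18, limma). That ratio was 3.54 without Input replicate 1, 4.75 without Input replicate 2, 3.55 without Pol II replicate 1 and 4.74 without Pol II replicate 2. In replicates 1 and 2, 13 and 16 Pol II peaks overlapped the gene, the most of the 10 genes. Irs2 (chr8:10986980-11008458, minus strand) had 25 and 27 reads over its body beside 207 and 238, and its ratio of 0.41 ± 0.26 was not called (adjusted p = 0.185, limma), except without Pol II replicate 2, where it was 0.78 (adjusted p = 2.84e-05, limma).

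At the start of Irs2 Pol II had 2 and 6 reads beside 8 and 9 in input, and was called higher (2.33 ± 0.75, adjusted p = 0.00523, limma), a call lost without either input (adjusted p = 0.151 and 0.12, limma) and with a pseudocount equal in RPM (0.0755). No Pol II peak overlapped Irs2. Neither adaptor had a Sox6 peak within 20 kb, and the nearest common peaks were 437 kb and 411 kb away. The antisense gene 9530052E02Rik overlaps the start of Irs2 and the gene Gm9747 lies within Irs1 on the other strand, and their reads cannot be told apart from those of the adaptors.

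Sox6 peaks near the 10 genes lay in introns and between genes. At the main starts of the 10 genes Sox6 was called at none (limma), with 2, H19 and Irs1, at an unadjusted p under 0.05 and none with voom weights, where 2831 of all 21842 genes tested were higher, and by adjusted p 0.343% of all genes were higher. Of the 209 bins of 5 kb in and around the 10 genes, none was called for Sox6, with 32 higher and 6 lower at an unadjusted p under 0.05, where 31224 higher and 18038 lower bins of all 490968 were found, and by adjusted p 0.0303% of all bins were higher. Common Sox6 peaks lay in or within 20 kb of 3 of the 10 genes, Igf1, Igf1r and Igf2r, beside 4.34% of all 22921 genes. These 3 are the longest of the 10, and among genes of at least 50 kb, 9.39% had a common peak in or within 20 kb. Pol II over the body was lower than input at 1 of the 3, Igf1, and higher at Igf1r and Igf2r.

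Of 53 other genes of the IGF pathway, listed by name and chosen with earlier results of these data known, 52 were tested over the body: 35 were higher in Pol II than in input, 11 lower and 6 not called, and the median log2 ratio was 1.06, beside 37.6% higher, 26.4% lower and a median of 0.09 over all genes. At the starts 34 of 51 were higher, beside 40.8% of all genes. By the size of the ratio over the body, Akt2 and Akt1, kinases downstream of phosphoinositide 3-kinase, stood first at 3.94 and 3.50. The GTPase gene Hras had 3.15, Stc2, an inhibitor of the protease that frees IGFs from Igfbp4, 2.74, Gsk3a, a kinase that Akt inhibits, 2.55, and the adaptor Grb10, which restrains the receptors, 2.45. They were followed by the translation repressor Eif4ebp1 at 2.09, the kinase Rps6kb1 at 2.01, the transcription factor Foxo4 at 2.00, the mTOR inhibitor Tsc2 at 1.94, the mTOR partner Rptor at 1.93 and the kinase subunit Pik3r2 at 1.88.

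The 11 lower genes included Ins2, which encodes insulin, at -1.88, Igfbp7 at -0.98, the protease gene Pappa at -1.25, and the adaptors Irs4 at -1.25 and Grb14 at -1.36; these 5 were picked from the lower genes after their values were seen. Insr, the insulin receptor, was higher at 0.90. Common Sox6 peaks lay in or within 20 kb of 4 genes of this list: Rptor with 3, and Ptpn11, Foxo3 and Igf2bp3 with 1 each, beside 4.34% of all genes, and all 4 were higher in Pol II over the body. Sox6 at the start was called at 1 gene of the list, Pik3r1, beside 0.343% of all genes, and over the body it was called higher at 4 of 52, Akt1, Akt2, Rptor and Eif4ebp1, beside 4.82% of all genes.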

How the data were processed

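Chromatin of mouse myotubes was immunoprecipitated for Sox6 and for Pol II, in 2 libraries each, beside 2 input libraries. The authors aligned the reads with Bowtie 0.12.5 to mm9, kept reads with a single place, called peaks against input and joined Sox6 peaks of both replicates within 50 bp. Whether repeated positions were removed is not stated, and the deposited files hold them (2.96% to 7.88% of reads). The deposited peak lists have a score column, which is 0 in every Sox6 row and unnamed for Pol II, and it was not used.

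From the deposited read positions, reads were counted at gene starts, over gene bodies from 1000 bp inside the start in genes of at least 2000 bp, in 5 kb bins and in 450 bp at peaks, with GENCODE gene models of the same build. Features with under 10 reads over the libraries compared were left out. Counts were scaled to library size (RPM), 0.5 reads were added, and log2 values were compared by limma 3.58.1 with a trend (R 4.3.3) and Benjamini-Hochberg adjustment at 0.05. Each fit held a ChIP group and the inputs. Peaks of 1 replicate were tested in the other by a two-sided exact binomial test (scipy 1.17.1). Reads were not strand-resolved to genes. With 1468604 to 2985437 ChIP reads, counts at single starts and peaks were small. The scripts were tested on simulated data.

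All 10 genes were named throughout, with every Sox6 peak within 20 kb, their other start sites over 1000 bp away, Actb, up to 12 pathway genes by size of the ratio, and the 3 genes most like H19 and Igf2. The genes, lists and tests were chosen with earlier results of these data known. Alternatives were other windows, filters, scalings, weights and pseudocounts, repeated positions counted once, a replicate block and leaving out each library.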

Additional observations from a re-analysis of the deposited data

How the results depend on the processing

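For the 10 genes and their peaks, 539 of the values under the alternatives kept their side of the threshold, though some uncalled values changed sign, 34 gained and 18 lost a call, and no value changed sign where it was called in either fit. Of the 113 Pol II bins called at these genes, 78 and 79 were still called without Input replicate 1 and 2, and 88 with a pseudocount equal in RPM. Calls over all features moved more. Pol II at starts was called at 9174 genes and at 32325 starts when every annotated start was fitted (chosen after seeing the data). The start-to-body ratio was called at 3131 genes, at 5250 with 500 bp windows and at 1628 with a pseudocount equal in RPM. Sox6 at starts was called at 75 genes, at 259 and 418 with windows of 250 and 500 bp, at 167 of all annotated starts, at 735 with no filter, at 207 with voom weights and at 0 with the equal pseudocount, which also gave 0 for Sox6 bins and bodies (149 and 1230 otherwise). With the deposited peak interval alone, 902 and 790 peaks held in the other replicate, beside 1936 and 1463 in 450 bp. Common Sox6 peaks lay near 1635 genes within 50 kb and 2625 with either replicate's list, beside 994. Leaving out 1 library gave 27212 to 327246 Pol II bins, 0 to 9001 ratios, and for Sox6 0 to 10376 starts, 138 to 206463 bins and 215 to 9827 bodies. The higher counts came without a ChIP library, when the lone one is assumed to vary like the inputs. Among Pol II calls at starts 96.8% were higher, 71.2% with the equal pseudocount and 86.4% with voom weights. In Pol II bins the share was 56.6% and 33.1% with the equal pseudocount, and the direction of most calls also changed with which library was left out. Scaling to reads outside peaks moved the median Pol II log2 ratio from 0.76 to 0.94 at starts and from 0.09 to 0.27 over bodies.

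Deviations of same-numbered libraries were barely correlated (-0.0758 to 0.0626). This cannot show whether they share a culture, since counting error also lowers such correlations. The study's methods name an input for each ChIP experiment. Same-numbered inputs were used in the binomial tests, while the main limma fits did not pair libraries. With the replicate block Sox6 was called at 329 starts, 3312 bins and 3542 bodies.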

Other observations

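Downstream of H19, just upstream of the start of the non-coding gene Nctc1 (chr7:149730514-149744501, minus strand), Pol II was also above input. In the 5 kb from 149745001 it had 19 and 43 reads, a log2 ratio of 2.14 (adjusted p = 0.000107, limma), and Sox6 had 19 and 18 reads there, a log2 ratio of 1.501 that was not called (adjusted p = 0.308, limma).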
